A study of Mus musculus with 12 samples.

Results

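The 44 genes described here encode the machinery that licenses origins, opens and copies DNA at replication forks, supplies deoxynucleotides and restores DNA methylation behind the fork. They were chosen by gene symbol, with earlier results of these data known, and all 44 were found among the 24346 genes with values in the deposited table. RNA was sequenced from 2 mouse fibroblast lines after 48 h with or without SHHN, the amino-terminal fragment of the secreted ligand Sonic hedgehog. NIH-3T3 was derived from NIH/Swiss mouse embryos and MLg from the lung of newborn ddY mice. The 4 groups, each of 3 libraries, were NIH-3T3 control (vehicle), NIH-3T3 SHHN (1 µg/ml), MLg control (vehicle) and MLg SHHN (1 µg/ml). NIH-3T3 had been grown with 10% bovine calf serum and MLg with 10% fetal bovine serum, and every group, controls included, was treated at 85% confluence in medium with 0.5% fetal bovine serum. Each group is 1 established line, and nothing in the labels tells whether its 3 libraries came from separate dishes, so p-values measure the spread among these libraries, which may be technical. Levels are in FPKM, a fragment count scaled to transcript length and library size.

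A cell licenses its origins in G1, when the origin recognition complex, Cdc6 and Cdt1 place the MCM2-7 helicase on DNA. In S phase the kinase Cdc7 with its activator Dbf4, together with cyclin-dependent kinases, recruits Cdc45 and the GINS complex, which turn the loaded ring into a moving helicase followed by the DNA polymerases. Transcription of many of these genes is known to depend on the E2F family of factors, which is held in check in quiescent cells, and fibroblasts kept in low serum tend towards quiescence.

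Between 13401 and 14793 genes were above 0 per library, and the sequencing depth is unknown because the files hold no counts. Across the 12379 genes tested, Spearman's rho ranged from 0.973 to 0.995 for pairs of replicates, and it was 0.841 to 0.958 for pairs taken from unlike groups. The Hedgehog target Gli1 was at 0.0840 to 0.906 FPKM in the 6 control libraries and at 113 to 151 FPKM in the 6 SHHN libraries, so every library matched its treatment label. Summed over 8 fibroblast markers the level was 13014 to 14352 FPKM in NIH-3T3 control and 8391 to 10353 FPKM with SHHN, without overlap, and 8669 to 9909 FPKM and 7792 to 9271 FPKM in MLg, which overlap. Of the 8, 6 were called lower and 1 higher with SHHN in NIH-3T3 (median log2 fold change -0.66) and 2 lower and 0 higher in MLg (median -0.13), with Thy1 at most 0.106 FPKM in MLg. Of all genes tested, 14.8% were called lower and 16.6% higher in NIH-3T3, and 10.0% and 12.8% in MLg. Of 5 epithelial markers Epcam and Krt18 were at 0 everywhere, and their sum was at most 0.620 FPKM. Of 4 blood cell markers Adgre1 and Cd3e were at 0 everywhere, and the sum of the list, nearly all from Cd68, was 0.731 to 1.74 FPKM in NIH-3T3 control, 0.511 to 0.990 FPKM in NIH-3T3 SHHN, 0.455 to 1.44 FPKM in MLg control and 0.354 to 0.955 FPKM in MLg SHHN. The sum of 4 endothelial markers went from 0.0507 to 0.135 FPKM in NIH-3T3 control to 2.19 to 14.1 FPKM with SHHN, and from 0.0556 to 0.124 FPKM to 4.77 to 5.49 FPKM in MLg. That rise came from Cdh5, while Pecam1, Kdr and Tie1 were at most 0.137 FPKM in any library, and the part of these markers in the results on replication genes was not tested.

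The replication genes rose with SHHN nearly as a whole in both lines. In NIH-3T3, 41 of the 44 passed the test as higher and 0 as lower, at an adjusted p (limma, Benjamini-Hochberg over all 12379 genes tested) under 0.05, where 16.6% of all genes were called higher and 14.8% lower. In MLg, 43 of 44 were higher and 0 lower, where 12.8% of all genes were called higher and 10.0% lower. The same 41 genes rose in both lines, against 7.38% of all genes called higher in both. Only Orc3 was called in neither line, and the remaining 2, Orc2 and Orc6, were called in MLg alone. All 44 genes passed the filter on low values. As the list was chosen with earlier results of these data known, its contrast with all genes is a description and no independent test.

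Summed over the 44 genes, the level was 413 ± 14.2 FPKM (SD, n = 3) in NIH-3T3 control and 1294 ± 66.8 FPKM in NIH-3T3 SHHN. In MLg the sum was 563 ± 62.7 FPKM in control and 1870.1 ± 94.8 FPKM with SHHN. As a share of all FPKM in a library, these genes went from 0.0687% to 0.249% in NIH-3T3 and from 0.109% to 0.375% in MLg. In bulk RNA, more cells passing through S phase and more of these transcripts per cell cannot be told apart. The FPKM total over all genes was 545656 to 659862 in NIH-3T3 control and 494531 to 542742 in NIH-3T3 SHHN, without overlap. In MLg it was 502807 to 543999 in control and 470218 to 520381 with SHHN, which overlap. With median-ratio scaling the counts were 41 and 43 as well. That scaling aligns the median gene ratio between libraries and does not equalise these totals, so it does not address their shift.

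**Figure D1:**
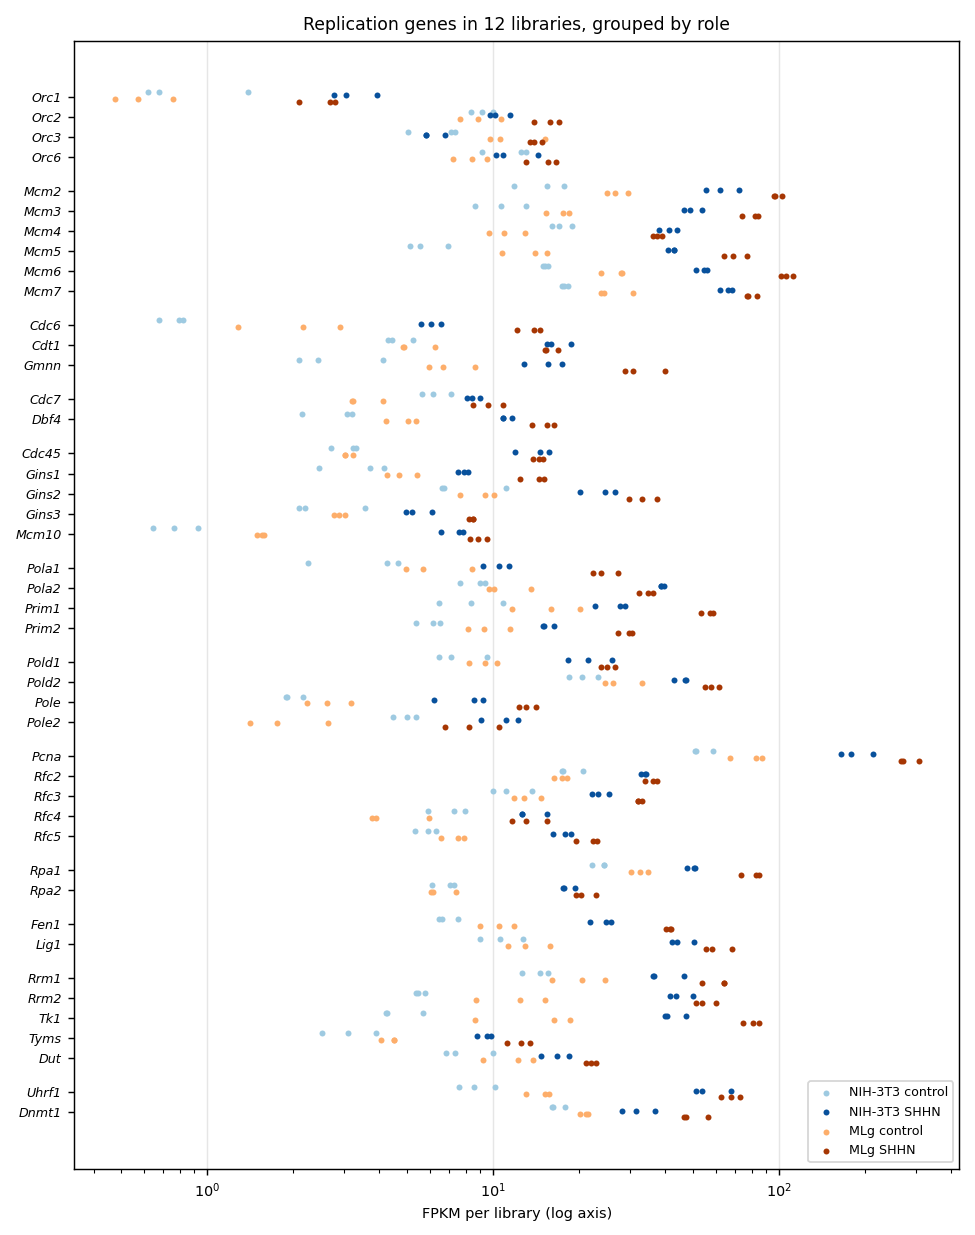
FPKM of each of the 44 genes (rows, grouped by role) in each of the 12 libraries (points) on a log axis; pale points are control and dark points SHHN, blue NIH-3T3 and orange to brown MLg. The SHHN points lie above the control points of the same line for 41 genes in NIH-3T3 and 43 in MLg, and the 3 NIH-3T3 exceptions are Orc2, Orc3 and Orc6.

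In log2 fold change on the log2(FPKM + 0.5) scale, the 44 genes had a median of 1.48 in NIH-3T3 and 1.59 in MLg, where the median over all genes was -0.01 and 0.00. The range was -0.06 to 3.05 in NIH-3T3 and 0.27 to 2.49 in MLg. At least a 2-fold rise was called for 36 genes in NIH-3T3 and 40 in MLg, against 6.53% and 5.25% of all genes. The 5 genes that rose by less than 2-fold in NIH-3T3 were Cdc7, Rfc2, Rfc4, Dnmt1 and Gins3, and the 3 in MLg were Orc2, Orc6 and Dut. Control and SHHN libraries did not overlap for 41 genes in NIH-3T3 and 43 in MLg, where 21.6% and 21.4% of all genes were higher without overlap. By role, medians in NIH-3T3 ran from 0.11 for the origin recognition genes and 1.01 for the clamp and its loader to 2.26 for the loading factors, and in MLg from 0.78 to 2.15 for the first and the last of these roles.

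Because these genes moved together, their promoters were searched for E2F words, the 8-base matches TTTCGCGC, TTTGGCGC, TTTCCCGC and TTTGCCGC on either strand, in RefSeq's promoter windows of GRCm38.p6 (the reference assembly called mm10), from 250 bases before to 50 bases after the annotated start. Taking the first promoter listed for each gene, one was found for 37 of the 44 genes, and 13 of these (35.1%) held at least 1 word, against 4.2% of 9384 tested genes and 2.32% of 27025 genes in all, counted in the same way. Other words were searched in the same windows. The CCAAT box was in 59.5% of the 37 against 39.5% of tested genes, and TTTGAA, the CHR word, in 18.9% against 11.5%. The Gli core word GACCACCCA was in 0 of the 37 and in 0.245% of tested genes. Over every promoter listed, 16 of 47 windows of the 44 genes (34%) held a word, against 2.26% of 32851 in all, and Lig1, Uhrf1 and Dnmt1 held one in a later listed promoter only. The 13 were Orc1, Orc3, Mcm3, Mcm5, Mcm6, Mcm7, Cdc6, Cdt1, Gins3, Pola1, Pold1, Pole2 and Rfc3. Words can overlap, as they do in Mcm5 and Mcm6, where a word on each strand shares its CG-rich centre. The upstream 250 bases are shown for Mcm5 and Mcm6, which hold several words, for Orc1 and Cdc6, which rose most in their roles, for Orc3, which holds a word and was called in neither line, and for Cdc7, the smallest rise called in NIH-3T3, with no word. Capitals mark E2F words, and each sequence runs 5′ to 3′ on the strand of its gene and ends 1 base before the start:
Mcm5 (chr8:75109259-75109508, plus strand): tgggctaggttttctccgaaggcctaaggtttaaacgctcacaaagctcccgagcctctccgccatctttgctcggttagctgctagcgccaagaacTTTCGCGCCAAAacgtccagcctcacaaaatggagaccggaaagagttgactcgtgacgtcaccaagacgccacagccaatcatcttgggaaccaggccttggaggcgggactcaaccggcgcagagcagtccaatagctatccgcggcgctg
Mcm6 (chr1:128359706-128359955, minus strand): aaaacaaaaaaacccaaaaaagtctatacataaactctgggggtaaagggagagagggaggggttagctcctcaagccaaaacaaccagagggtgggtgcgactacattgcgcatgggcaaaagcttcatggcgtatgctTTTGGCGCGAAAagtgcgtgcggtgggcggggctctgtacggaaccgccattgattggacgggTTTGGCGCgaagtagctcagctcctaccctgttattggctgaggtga
Orc1 (chr4:108579204-108579453, plus strand): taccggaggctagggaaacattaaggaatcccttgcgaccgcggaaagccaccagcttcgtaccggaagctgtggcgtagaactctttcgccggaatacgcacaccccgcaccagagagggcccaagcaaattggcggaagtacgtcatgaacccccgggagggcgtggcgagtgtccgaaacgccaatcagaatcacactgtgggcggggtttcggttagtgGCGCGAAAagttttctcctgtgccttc
Cdc6 (chr11:98907901-98908150, plus strand): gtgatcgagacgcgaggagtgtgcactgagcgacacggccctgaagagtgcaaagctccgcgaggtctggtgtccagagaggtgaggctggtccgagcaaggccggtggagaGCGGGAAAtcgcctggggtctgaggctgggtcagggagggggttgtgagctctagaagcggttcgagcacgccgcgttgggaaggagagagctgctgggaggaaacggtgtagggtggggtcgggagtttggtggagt
Orc3 (chr4:34614943-34615192, minus strand): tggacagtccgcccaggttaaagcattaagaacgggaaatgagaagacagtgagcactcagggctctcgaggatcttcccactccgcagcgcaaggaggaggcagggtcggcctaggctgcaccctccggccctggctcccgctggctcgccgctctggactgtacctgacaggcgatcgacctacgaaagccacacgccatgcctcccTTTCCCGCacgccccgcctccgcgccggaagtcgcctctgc
Cdc7 (chr5:106964072-106964321, plus strand): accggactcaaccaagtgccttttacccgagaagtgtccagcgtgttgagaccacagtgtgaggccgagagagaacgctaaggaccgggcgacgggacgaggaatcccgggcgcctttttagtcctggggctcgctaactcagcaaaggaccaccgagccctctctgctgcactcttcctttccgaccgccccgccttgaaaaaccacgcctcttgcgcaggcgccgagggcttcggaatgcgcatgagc
In Mcm5 the pair of overlapping words began 153 and 149 bases before the start, and in Mcm6 110 and 106 bases before it, with a further word at 47. The single word of Orc1 began 27 bases, that of Orc3 41 bases and that of Cdc6 138 bases before the start. The start meant here is that of the promoter window. RefSeq's gene model begins further upstream for Orc1 (chr4:108575705) and Cdc6 (chr11:98907709), so their stretches shown lie wholly within the annotated gene. For Mcm5 (chr8:75109468), Orc3 (chr4:34614963) and Cdc7 (chr5:106964315) the model begins inside the stretch shown, so its last bases lie within the gene. A match describes letters only: binding was not measured, and neither was the start used in these lines. Orc3, called in neither line, holds a word, while Orc2 and Orc6, called in MLg alone, hold none. Among genes that rose in both lines, Mcm5 and others hold a word. Mcm10, Tk1, Rrm2 and the promoter listed first for Uhrf1 hold none. Whether a word goes with a rise was not tested.

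**Figure D2:**
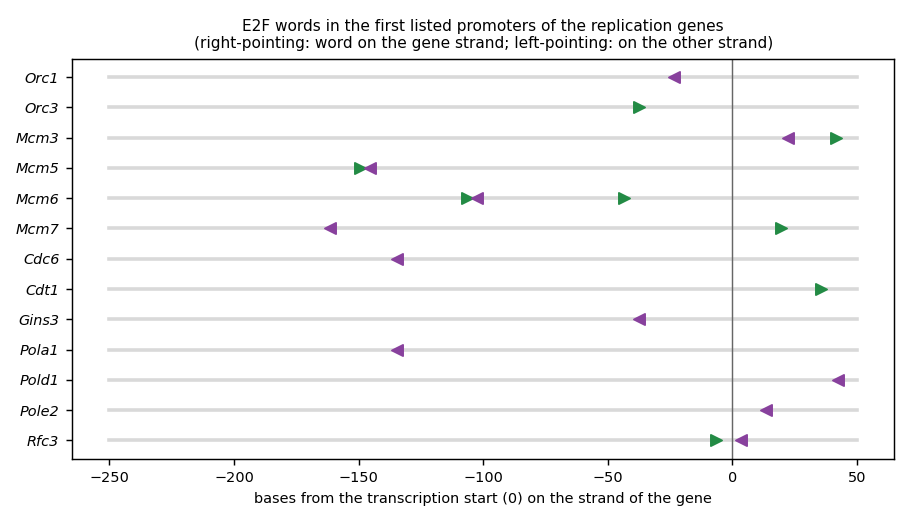
Position of every E2F word in the first listed promoter of the 13 replication genes that hold one there, in bases from the annotated transcription start (0) on the strand of the gene; right-pointing marks are words on the gene strand and left-pointing marks words on the other strand. Words in these first promoters lie from 165 bases before to 39 bases after the start, and Mcm5 and Mcm6 each show a pair of touching marks.

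The origin recognition complex, which marks origins and recruits the loading factors, was the role that moved least. Its subunit Orc1 rose in both lines, from 0.68, 1.39 and 0.6203 FPKM to 3.91, 2.77 and 3.06 FPKM in NIH-3T3 and from 0.474, 0.574 and 0.756 FPKM to 2.69, 2.099 and 2.797 FPKM in MLg. The log2 fold changes were 1.45 (SE 0.21, adjusted p = 1.06e-04) and 1.46 (SE 0.21, adjusted p = 1.26e-04). Orc1 was the least abundant of the 44 genes in 3 of the groups, and NIH-3T3 control replicate 2 stood above the other 2 libraries of its group. Orc2, a core subunit, was at 9.103, 8.35 and 9.98 FPKM in NIH-3T3 control and 9.76, 10.1 and 11.5 FPKM with SHHN, which overlap (log2 fold change 0.19, SE 0.14, adjusted p = 0.338). In MLg it rose from 7.64, 8.83 and 10.6 FPKM to 13.9, 15.7 and 16.9 FPKM without overlap (0.76, SE 0.14, adjusted p = 0.00102). The difference between the lines for Orc2 was -0.57 (adjusted p = 0.0697), and it passed in 4 of 20 alternatives: the replicate number as a block (adjusted p = 0.0396), quantile normalization (0.0476), and without NIH-3T3 control replicate 2 (0.0419) or MLg control replicate 3 (0.0292).

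Orc3, another core subunit, was the gene called in neither line. In NIH-3T3 its libraries were at 7.14, 5.01 and 7.34 FPKM in control and 5.82, 5.81 and 6.76 FPKM with SHHN (-0.06, SE 0.17, adjusted p = 0.829). In MLg they were at 9.72, 10.6 and 15.1 FPKM and 13.4, 13.9 and 14.8 FPKM (0.27, SE 0.17, adjusted p = 0.323), where control replicate 3 exceeded all SHHN libraries. Orc6, the smallest subunit and the one least tightly bound to the complex, was at 9.11, 12.5 and 13.01 FPKM in NIH-3T3 control and 10.8, 10.2 and 14.4 FPKM with SHHN (0.03, SE 0.17, adjusted p = 0.924). In MLg it rose from 7.24, 8.44 and 9.52 FPKM to 13.02, 16.6 and 15.5 FPKM without overlap (0.80, SE 0.17, adjusted p = 0.00331). Per the GENCODE M21 annotation, 24% of the exon bases of Orc2, 11.9% of those of Orc1 and 7.14% of those of Orc6 also lie in exons of a gene on the opposite strand. Whether counting used strand is not given in the sources used here, so their values are uncertain to that extent.

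All 6 subunits of the MCM2-7 helicase, the ring that unwinds DNA at the fork, rose in both lines. Mcm5 led, from 6.96, 5.13 and 5.53 FPKM to 42.7, 40.9 and 42.98 FPKM in NIH-3T3 (2.75, SE 0.14, adjusted p = 1.28e-08) and from 10.7, 13.95 and 15.4 FPKM to 77.3, 63.9 and 68.8 FPKM in MLg (2.36, SE 0.14, adjusted p = 1.42e-07). Mcm4, part of the catalytic core of the ring, rose least in NIH-3T3, from 17.002, 15.99 and 18.9 FPKM to 43.8, 38.1 and 40.999 FPKM (1.22, SE 0.12, adjusted p = 3.29e-06). In MLg it rose from 9.63, 10.9 and 12.9 FPKM to 37.4, 36.1 and 38.98 FPKM (1.72, SE 0.12, adjusted p = 2.82e-07). No SHHN library of either line fell within the control range of Mcm4 or Mcm5. Among the others, log2 fold changes in NIH-3T3 and MLg were 2.17 and 2.2 for Mcm3, 2.05 and 1.84 for Mcm2, 1.85 and 1.58 for Mcm7, and 1.8 and 1.98 for Mcm6, with SE from 0.10 to 0.14. For Mcm7, 10.8% of exon bases lie in exons of Ap4m1 on the opposite strand.

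The helicase is built with a single copy of each subunit, so the subunits were also read as shares of the summed MCM2-7 level of each library. Mcm4 went from 21.2% ± 2.60 (SD, n = 3) of the sum in NIH-3T3 control to 13.0% ± 0.584 with SHHN, and the libraries did not overlap. Mcm5 went the other way, from 7.15% ± 0.770 to 13.4% ± 0.774 in NIH-3T3 and from 10.9% ± 1.24 to 14.8% ± 0.691 in MLg. Thus the least abundant subunit in NIH-3T3 control, Mcm5, and one of the most abundant, Mcm4, were at nearly equal shares after SHHN. In MLg, Mcm4 was the least abundant subunit in both groups, at 9.17% ± 1.06 and 7.97% ± 0.390. Mcm7 went from 21.6% ± 1.96 to 16.9% ± 0.424 in MLg. Such shares compare levels per transcript length and say nothing of protein.

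The loading factors and their inhibitor rose in both lines. Cdc6, the ATPase that joins the origin recognition complex to load the helicase, rose from 0.824, 0.68 and 0.793 FPKM to 6.59, 5.58 and 6.06 FPKM in NIH-3T3 (2.38, SE 0.19, adjusted p = 6.26e-07). In MLg it rose from 1.28, 2.91 and 2.16 FPKM to 14.6, 12.2 and 13.9 FPKM (2.47, SE 0.19, adjusted p = 8.15e-07). Cdt1, which brings MCM2-7 to the origin, rose from 4.28, 5.25 and 4.44 FPKM to 18.7, 15.9 and 15.4 FPKM in NIH-3T3 (1.73, SE 0.13, adjusted p = 3.28e-07), and from 4.89, 6.25 and 4.84 FPKM to 15.2, 16.8 and 15.3 FPKM in MLg (1.49, SE 0.13, adjusted p = 2.32e-06). Treated libraries of the lines overlapped for Cdt1, while all those of MLg were above those of NIH-3T3 for Cdc6. Gmnn (geminin), which binds Cdt1 and blocks relicensing, had log2 fold changes of 2.26 in NIH-3T3 and 2.15 in MLg (both with SE 0.21), and reached 12.8 to 17.4 FPKM and 28.9 to 39.9 FPKM.

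The kinase that fires origins gave the clearest difference between the lines. Dbf4, its regulatory subunit, rose from 3.08, 2.15 and 3.21 FPKM to 10.8, 10.8 and 11.7 FPKM in NIH-3T3 (1.82, SE 0.15, adjusted p = 5.37e-07) and from 4.22, 5.03 and 5.36 FPKM to 15.4, 13.6 and 16.3 FPKM in MLg (1.54, SE 0.15, adjusted p = 4.01e-06). Cdc7, the catalytic subunit, rose from 6.16, 5.62 and 7.12 FPKM to 8.97, 8.1 and 8.42 FPKM in NIH-3T3 (0.41, SE 0.14, adjusted p = 0.0378). In MLg it rose from 3.199, 3.23 and 4.13 FPKM to 8.53, 9.58 and 10.8 FPKM (1.34, SE 0.14, adjusted p = 8.27e-06). All SHHN libraries were above the controls of their line for both subunits, but the gap for Cdc7 in NIH-3T3 was small. The NIH-3T3 call for Cdc7 ended without NIH-3T3 control replicate 1 (adjusted p = 0.0823) or 2 (0.0932), without NIH-3T3 SHHN replicate 1 (0.104), 2 (0.0670) or 3 (0.0726), without MLg SHHN replicate 2 (0.0558), and with 6 libraries per fit (0.0783).

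Genes that turn the loaded ring into an active helicase rose in all 5 cases in each line. Mcm10, which is needed for origin unwinding, rose from 0.762, 0.929 and 0.643 FPKM to 7.85, 6.57 and 7.59 FPKM in NIH-3T3 (2.62, SE 0.13, adjusted p = 8.04e-09) and from 1.56, 1.58 and 1.49 FPKM to 9.49, 8.32 and 8.87 FPKM in MLg (2.2, SE 0.13, adjusted p = 1.01e-07). Gins3, a GINS subunit, rose least in NIH-3T3, from 2.097, 3.55 and 2.201 FPKM to 5.21, 4.96 and 6.08 FPKM (0.95, SE 0.16, adjusted p = 4.88e-04), and in MLg from 3.02, 2.88 and 2.77 FPKM to 8.51, 8.49 and 8.23 FPKM (1.4, SE 0.16, adjusted p = 2.23e-05). Levels of Mcm10 differed between the lines among controls (-0.68, NIH-3T3 minus MLg, adjusted p = 6.31e-04) and did not pass among SHHN libraries (-0.26, adjusted p = 0.116). The difference of its SHHN effect between the lines, 0.42, was not called in the main fit or in any of 20 alternatives. Cdc45, the third part of the active helicase, rose by 2.02 and 2.05 (SE 0.13 each), and the GINS subunits Gins2 by 1.52 and 1.83 and Gins1 by 1.11 and 1.45, in NIH-3T3 and MLg in that order. For Gins2, 70.7% of exon bases lie in exons of Gse1 on the opposite strand.

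Polymerase alpha with primase starts each new strand, and all 4 of its subunits rose in both lines. Pola2, the accessory subunit, rose from 9.34, 8.98 and 7.66 FPKM to 38.5, 38.7 and 39.5 FPKM in NIH-3T3 (2.11, SE 0.13, adjusted p = 4.22e-08) and from 9.696, 13.5 and 10.1 FPKM to 36.1, 32.2 and 34.8 FPKM in MLg (1.6, SE 0.13, adjusted p = 1.04e-06). Prim2, the large primase subunit, rose from 5.38, 6.14 and 6.53 FPKM to 16.3, 14.95 and 15.01 FPKM in NIH-3T3 (1.29, SE 0.13, adjusted p = 4.49e-06), and from 8.17, 9.26 and 11.5 FPKM to 30.5, 27.3 and 29.9 FPKM in MLg (1.56, SE 0.13, adjusted p = 1.31e-06). Treated and control libraries did not overlap for either gene. Prim1, which makes the RNA primer, rose by 1.6 and 1.82 (SE 0.20 each), and Pola1, the catalytic subunit, by 1.41 and 1.89 (SE 0.23 each).

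Polymerases delta and epsilon copy the bulk of the genome, and the 4 subunits on the list rose in both lines. Pole, the catalytic subunit of polymerase epsilon, rose from 2.16, 1.89 and 1.91 FPKM to 8.54, 9.24 and 6.23 FPKM in NIH-3T3 (1.76, SE 0.16, adjusted p = 1.58e-06) and from 2.24, 2.62 and 3.18 FPKM to 14.2, 12.3 and 13.005 FPKM in MLg (2.11, SE 0.16, adjusted p = 5.50e-07). Its partner Pole2 rose from 4.99, 4.46 and 5.35 FPKM to 12.2, 9.02 and 11.1 FPKM in NIH-3T3 (1.05, SE 0.20, adjusted p = 0.00113) and from 1.75, 2.64 and 1.41 FPKM to 6.77, 8.198 and 10.5 FPKM in MLg (1.9, SE 0.20, adjusted p = 8.79e-06). The NIH-3T3 control libraries of Pole2 were all above the MLg control libraries. The difference between the lines for Pole2 was -0.85 (SE 0.28, adjusted p = 0.0625), and it passed in 3 of 20 alternatives, without NIH-3T3 control replicate 2 (0.0456), MLg control replicate 2 (0.0226) or MLg SHHN replicate 1 (0.0481). Of polymerase delta, the catalytic Pold1 rose by 1.46 and 1.4 (SE 0.16 each) and the accessory Pold2 by 1.13 and 1.05 (SE 0.13 each). For Pole2, 14.4% of exon bases are shared with an overlapping gene model on the same strand.

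Pcna, the sliding clamp that holds polymerases on DNA, was the most abundant of the 44 genes in each group. It rose from 58.8, 50.9 and 51.3 FPKM to 179, 164 and 212 FPKM in NIH-3T3 (1.77, SE 0.13, adjusted p = 2.22e-07) and from 67.4, 82.7 and 86.96 FPKM to 272, 266 and 309 FPKM in MLg (1.83, SE 0.13, adjusted p = 3.43e-07). Rfc2, a small subunit of the complex that loads the clamp, rose from 17.3, 20.5 and 17.5 FPKM to 33.9, 34.2 and 32.97 FPKM in NIH-3T3 (0.85, SE 0.10, adjusted p = 2.00e-05), and from 17.4, 18.1 and 16.4 FPKM to 37.5, 33.9 and 36.3 FPKM in MLg (1.03, SE 0.10, adjusted p = 5.06e-06). The replicates of Rfc2 lay close together, so that this modest rise was well above their spread. Of the other small loader subunits, Rfc5 rose by 1.5 and 1.5, Rfc3 by 1.01 and 1.28, and Rfc4 by 0.90 and 1.48. Exon bases shared with a gene on the opposite strand were 19.1% for Rfc2, 15.4% for Rfc5 and 13.4% for Rfc4.

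Replication protein A coats single-stranded DNA at the fork. Its middle subunit Rpa2 rose from 7.05, 6.08 and 7.31 FPKM to 17.5, 17.7 and 19.4 FPKM in NIH-3T3 (1.36, SE 0.12, adjusted p = 1.47e-06) and from 6.14, 7.42 and 6.05 FPKM to 19.5, 20.2 and 22.9 FPKM in MLg (1.6, SE 0.12, adjusted p = 5.86e-07). The large subunit Rpa1, more abundant at every point, rose from 24.4, 24.5 and 22.1 FPKM to 50.7, 47.7 and 50.2 FPKM in NIH-3T3 (1.05, SE 0.10, adjusted p = 2.67e-06), and from 30.3, 32.5 and 34.8 FPKM to 83.04, 73.4 and 84.8 FPKM in MLg (1.29, SE 0.10, adjusted p = 7.19e-07). No treated library of either gene came within the range of its controls.

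Lagging-strand fragments are trimmed by the flap endonuclease Fen1 and sealed by DNA ligase 1, and both genes rose in both lines. Lig1 rose from 12.7, 10.6 and 8.99 FPKM to 50.4, 43.8 and 42.2 FPKM in NIH-3T3 (2.04, SE 0.15, adjusted p = 2.45e-07) and from 11.2, 15.8 and 12.9 FPKM to 68.5, 55.3 and 58.2 FPKM in MLg (2.15, SE 0.15, adjusted p = 3.20e-07). Fen1 rose from 6.45, 7.54 and 6.61 FPKM to 25.9, 21.8 and 24.8 FPKM in NIH-3T3 (1.74, SE 0.12, adjusted p = 1.19e-07), and from 9.01, 11.8 and 10.5 FPKM to 41.8, 40.2 and 41.5 FPKM in MLg (1.94, SE 0.12, adjusted p = 1.52e-07). The 3 treated MLg libraries of Fen1 were nearly equal. An antisense gene model, Gm10143, covers 78.8% of the exon bases of Fen1, so its reads cannot be told apart from that gene's where strand was not used.

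Enzymes of deoxynucleotide supply held the largest change among the 44 genes. Tk1, the thymidine kinase of S phase, rose from 4.21, 5.66 and 4.24 FPKM to 40.5, 39.96 and 47.03 FPKM in NIH-3T3 (3.05, SE 0.22, adjusted p = 1.72e-07). In MLg it rose from 8.597, 18.6 and 16.4 FPKM to 81.1, 74.5 and 84.9 FPKM (2.49, SE 0.22, adjusted p = 2.00e-06). In the main fit Tk1 had the highest log2 fold change among the 44 genes in each line, but Cdc6 was close behind in MLg at 2.47. Over 21 alternatives Tk1 ran from 2.17 to 2.70 in MLg and Cdc6 from 2.22 to 2.69, so their order there depends on the settings. MLg control replicate 1 was well below the other 2 controls of that line for Tk1. Rrm2, the S phase subunit of ribonucleotide reductase, rose from 5.38, 5.44 and 5.78 FPKM to 43.5, 41.6 and 50.1 FPKM in NIH-3T3 (2.91, SE 0.16, adjusted p = 1.94e-08), and from 8.68, 12.4 and 15.1 FPKM to 53.8, 50.97 and 60.02 FPKM in MLg (2.17, SE 0.16, adjusted p = 5.48e-07). From controls that did not overlap, the treated libraries of the lines came close, with MLg still above. Dut, which removes dUTP, rose least in this role in NIH-3T3, from 6.84, 9.96 and 7.37 FPKM to 16.7, 14.7 and 18.4 FPKM (1.01, SE 0.16, adjusted p = 3.21e-04), and in MLg from 9.24, 13.8 and 12.2 FPKM to 21.95, 21.1 and 22.8 FPKM (0.89, SE 0.16, adjusted p = 0.0011). Rrm1, the large reductase subunit, rose by 1.44 and 1.57 (SE 0.16 each), and Tyms, which makes thymidylate, by 1.44 and 1.4 (SE 0.14 each).

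Copying of DNA methylation was represented by Uhrf1, which recognises hemimethylated DNA, and by the methyltransferase Dnmt1 that it recruits. Uhrf1 rose from 10.1, 8.58 and 7.62 FPKM to 67.7, 53.6 and 50.96 FPKM in NIH-3T3 (2.64, SE 0.14, adjusted p = 1.21e-08) and from 13.02, 15.7 and 15.1 FPKM to 72.8, 62.6 and 67.98 FPKM in MLg (2.18, SE 0.14, adjusted p = 1.56e-07). Dnmt1 rose by less, from 17.9, 16.2 and 16.1 FPKM to 36.8, 31.7 and 28.1 FPKM in NIH-3T3 (0.92, SE 0.12, adjusted p = 4.52e-05), and from 21.4, 21.05 and 20.04 FPKM to 56.2, 46.4 and 47.2 FPKM in MLg (1.24, SE 0.12, adjusted p = 4.18e-06). The more abundant of the pair was thus Dnmt1 in every control library and Uhrf1 in every SHHN library.

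The order of the 44 log2 fold changes was much alike in the lines, which share no library. Pearson's r across the 44 genes was 0.88 and Spearman's rho 0.87, given as a description because genes of 1 library are not independent. The rise was larger in MLg for 28 genes and in NIH-3T3 for 16. A test of the difference itself (NIH-3T3 change minus MLg change, same limma fit) called 1 of 44 genes higher and 2 lower, where 7.48% and 5.95% of all genes were called, so the share of the 44 genes called was no higher than that of all genes. The difference for Cdc7, which rose less in NIH-3T3, was -0.93 (SE 0.20, adjusted p = 0.00681) and was called in all 20 alternatives. Orc6 differed by -0.77 (SE 0.24, adjusted p = 0.0495), a call kept in 9 of 20 alternatives. It was kept without NIH-3T3 control replicate 1, NIH-3T3 SHHN replicate 3 or MLg control replicate 3 (0.0191 to 0.0403) and was lost without any other single library (0.0509 to 0.126). Rrm2 rose more in NIH-3T3 by 0.74 (SE 0.23, adjusted p = 0.0487), a call kept in 7 of 20 alternatives. It was kept without MLg control replicate 1 (0.00477) and was lost without any other single library (0.0533 to 0.111). Without NIH-3T3 control replicate 2 or without MLg control replicate 3 the test called 5 genes lower, and without MLg control replicate 1 it called 2 higher.

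**Figure D3:**
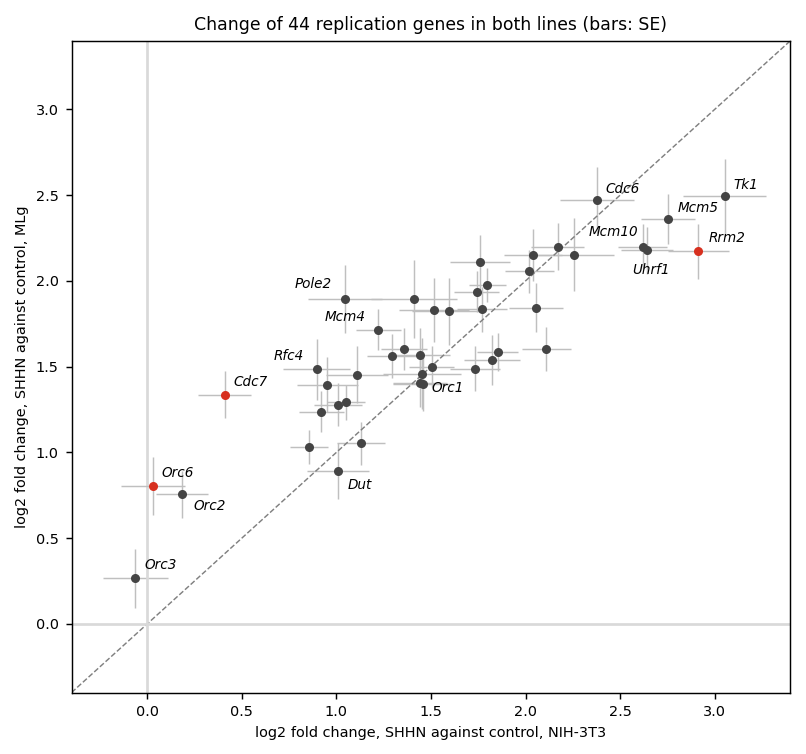
Log2 fold change, SHHN against control, of each of the 44 genes in NIH-3T3 (x axis) and MLg (y axis), with standard errors as bars and a dashed line of equal change; red points are the 3 genes called in the test of the difference. Most genes lie near the line from Dut to Tk1, while Cdc7, Pole2, Orc6, Rfc4 and Orc2 lie farthest above it and Rrm2 farthest below it.

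Baselines of the lines were unequal. In control libraries 26 of 44 genes were lower in NIH-3T3 than in MLg and 4 were higher, where 25.7% and 24.4% of all genes were called, and the median log2 difference was -0.43 against 0.00 over all genes. The lowest in NIH-3T3 relative to MLg were Tk1 (-1.47, SE 0.22, adjusted p = 7.95e-05), Gmnn (-1.2, SE 0.21, adjusted p = 3.60e-04) and Mcm5 (-1.11, SE 0.14, adjusted p = 2.14e-05). The 4 higher in NIH-3T3 were Pole2 (1.19, adjusted p = 2.07e-04), Cdc7 (0.76, adjusted p = 4.26e-04), Mcm4 (0.62, adjusted p = 6.92e-04) and Rfc4 (0.61, adjusted p = 0.0114). Of the 26 lower genes 18 were called in all 20 alternatives, the exceptions being Gins1, Pola1, Pola2, Pold2, Rrm1, Tyms, Dut and Dnmt1, and of the 4 higher genes all but Rfc4, whose call ended without MLg control replicate 1 (adjusted p = 0.0534) or 2 (0.0509). With 6 libraries per fit 18 were lower. Of 12 reference genes, 6 were also lower in NIH-3T3 and 2 higher among controls, with a median of -0.32, and their part in the shift of the 44 genes was not tested. Libraries of the lines did not overlap for 27 genes higher in MLg and 3 higher in NIH-3T3, against 27.0% and 25.2% of all genes.

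Among SHHN libraries 26 genes were lower in NIH-3T3 and 0 higher, where 24.8% and 22.1% of all genes were called, with a median log2 difference of -0.44 against -0.04 over all genes. Of the 12 reference genes 5 were lower and 0 higher, with a median of -0.38. Of the 26, 20 were also lower in control. The lowest was Pola1 (-1.2, SE 0.23, adjusted p = 6.66e-04), followed by Orc3 (-1.13, adjusted p = 1.12e-04). None of Pole2, Cdc7, Mcm4 and Rfc4 was called under SHHN, with differences of 0.34, -0.17, 0.12 and 0.02 (adjusted p = 0.18, 0.349, 0.421 and 0.933). Of these genes only Cdc7 was called in the main test of the difference of the SHHN effect. Of the 26 genes 21 were called in all 20 alternatives, the exceptions being Dbf4, Gins2, Pold2, Lig1 and Tyms. Libraries did not overlap for 32 genes higher in MLg and 1 higher in NIH-3T3, against 32.7% and 28.6% of all genes. These level comparisons use the same libraries as the SHHN comparisons and are no separate evidence on them. Line, serum of growth and strain of origin differ together between NIH-3T3 and MLg and cannot be told apart.

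**Figure D4:**
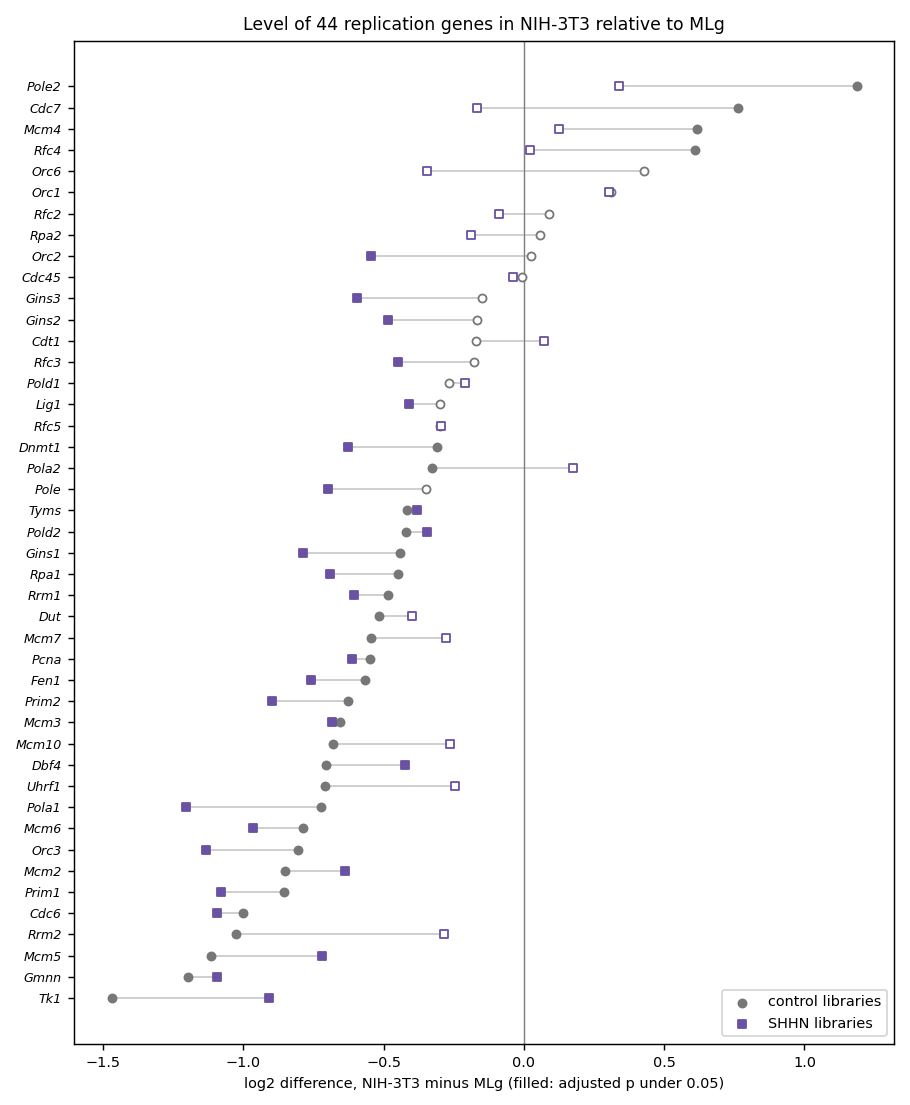
Log2 difference in level, NIH-3T3 minus MLg, of each of the 44 genes (rows) among control libraries (grey circles) and among SHHN libraries (purple squares), filled where the adjusted p is under 0.05. Most points lie left of 0, and the 4 filled circles to the right of 0 (Pole2, Cdc7, Mcm4 and Rfc4) have open squares.

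Partners within a complex or pathway were also compared as ratios of FPKM within each library, which does not depend on scaling between libraries. For 8 ratios in 2 lines, an exact permutation test of 3 libraries against 3 cannot go below p = 0.1, or 0.145 after adjustment over the 16 comparisons, so no ratio could pass the threshold. The ratio of Rrm2 to Rrm1 went from 0.369 to 0.432 in NIH-3T3 control to 1.08 to 1.19 with SHHN, and from 0.543 to 0.615 to 0.838 to 0.953 in MLg. Uhrf1 to Dnmt1 went from 0.474 to 0.566 to 1.69 to 1.84 in NIH-3T3 and from 0.608 to 0.754 to 1.29 to 1.44 in MLg. Both pairs thus moved from an excess of the second gene towards or past equality, and control and SHHN libraries did not overlap in either line. Cdc6 to Cdt1 was also higher with SHHN without overlap, from 0.129 to 0.192 to 0.352 to 0.394 in NIH-3T3 and from 0.262 to 0.466 to 0.722 to 0.963 in MLg. Orc1 to Orc2 did so from 0.0622 to 0.166 to 0.266 to 0.4 in NIH-3T3 and from 0.0620 to 0.0712 to 0.133 to 0.193 in MLg.

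For the other ratios control and SHHN libraries overlapped in at least 1 line, and no difference between the lines was tested for ratios. Dbf4 to Cdc7 went from 0.382 to 0.500 to 1.21 to 1.38 in NIH-3T3, whereas in MLg it was 1.30 to 1.56 in control and 1.42 to 1.80 with SHHN, which overlap. In NIH-3T3 control the catalytic subunit was thus the more abundant transcript, and in the other groups the regulatory subunit. Pole to Pole2 went from 0.356 to 0.432 to 0.563 to 1.02 in NIH-3T3 and overlapped in MLg. Cdt1 to Gmnn was lower with SHHN without overlap in MLg, from 0.724 to 0.821 to 0.383 to 0.546, and overlapped in NIH-3T3 at 1.08 to 2.52 and 0.885 to 1.24, while its mean log2 change was much the same, -0.66 in MLg and -0.62 in NIH-3T3. Pola1 to Pola2 overlapped in both lines.

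**Figure D5:**
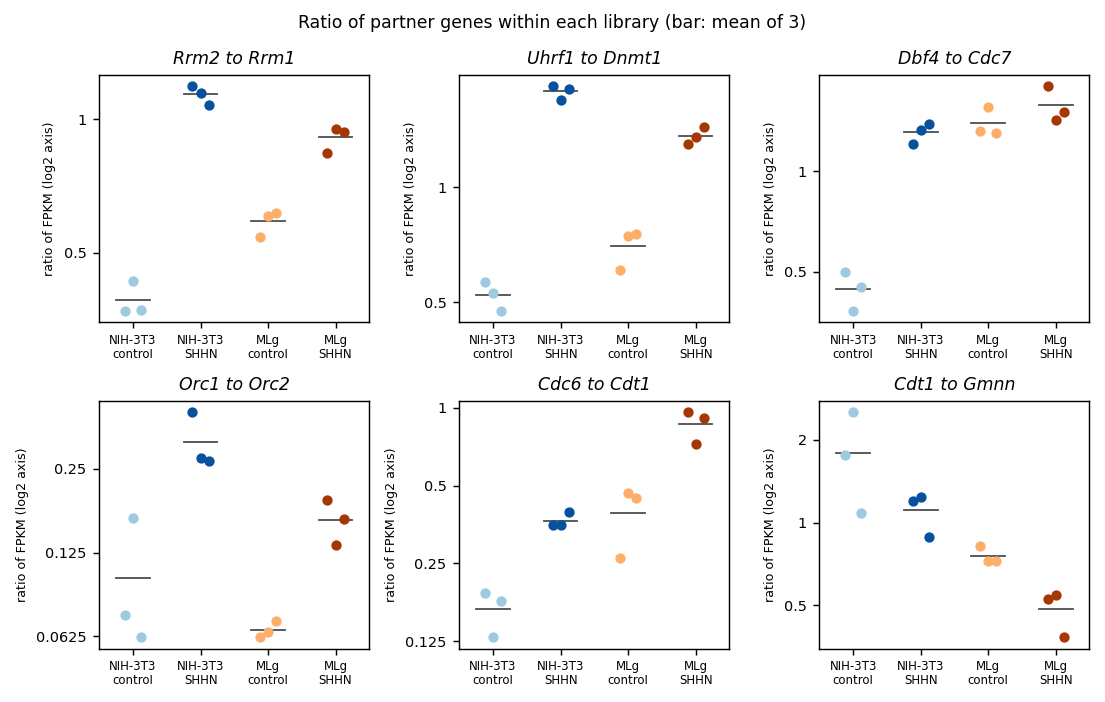
Ratio of FPKM of 6 partner pairs in each library (points, log2 axis) with the mean of the 3 libraries of a group (bar). Rrm2 to Rrm1, Uhrf1 to Dnmt1, Cdc6 to Cdt1 and Orc1 to Orc2 are higher with SHHN in both lines without overlap, and Dbf4 to Cdc7 is so in NIH-3T3 and overlaps in MLg, while Cdt1 to Gmnn is lower without overlap in MLg and overlaps in NIH-3T3.

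Within some libraries the 44 genes deviated together. Most of the 44 genes were below their group mean in 3 libraries, since only 4 were above it in NIH-3T3 SHHN replicate 2, 5 in MLg SHHN replicate 2 and 5 in MLg control replicate 1. The median deviation from the group mean was -0.08, -0.09 and -0.17 in log2 in these libraries, small beside the median rises of 1.48 and 1.59. Without any 1 of the 12 libraries, 40 or 41 genes were higher in NIH-3T3 and 43 in MLg.

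Further genes of replication were read from a list of 55, of which 54 were found and tested. In NIH-3T3, 31 of 54 were higher and 1 lower (median log2 fold change 0.59), and in MLg 39 were higher and 1 lower (median 0.91). Of all genes tested, 16.6% were called higher and 14.8% lower in NIH-3T3, and 12.8% and 10.0% in MLg. The highest in NIH-3T3 were Asf1b, a histone chaperone (3.03, SE 0.19), Clspn, the checkpoint mediator claspin (2.46, SE 0.15), and Ung, which removes uracil from DNA (2.38, SE 0.14). In MLg they were Dna2, a nuclease and helicase of flap processing (2.32, SE 0.16), Clspn (2.21, SE 0.15) and Wdhd1, which links polymerase alpha to the helicase (2.13, SE 0.19). Pold4, the smallest subunit of polymerase delta, was the 1 gene that fell in each line. It went from 16.04, 18.8 and 15.9 FPKM to 11.5, 12.5 and 12.3 FPKM in NIH-3T3 (-0.47, SE 0.13, adjusted p = 0.0128) and from 30.98, 35.4 and 31.2 FPKM to 20.9, 22.3 and 16.4 FPKM in MLg (-0.71, SE 0.13, adjusted p = 9.91e-04), while Pold1 and Pold2 of the same enzyme rose. Pold4 was called in all 21 alternatives in each line. The other lowest values were not called: Orc4 (-0.38, adjusted p = 0.221) and the mitochondrial thymidine kinase Tk2 (-0.16, adjusted p = 0.282) in NIH-3T3, and Tk2 (-0.31, adjusted p = 0.0586) and Orc5 (-0.10, adjusted p = 0.776) in MLg. Orc4 passed without NIH-3T3 control replicate 2 (-0.59, adjusted p = 0.0484), and Tk2 passed in MLg with quantile normalization (0.0140), median-ratio scaling (0.0279), no filter (0.0436) or without NIH-3T3 control replicate 2 (0.0494). Taking the first promoter listed for each gene, E2F words were found in 9 of 46 promoters of this list (19.6%), against 4.2% of 9384 tested genes.

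By role, 6 of 11 tested origin and helicase partners were higher in NIH-3T3 and 9 in MLg, with medians of 0.44 and 1.13. For this and the counts below, 16.6% of all genes were called higher in NIH-3T3 and 12.8% in MLg. The shares called lower were 14.8% and 10.0%. Among 10 partners of the polymerases and the clamp loader, 4 and 8 were higher, with medians of 0.28 and 0.72. Among 9 genes of fork protection and joining, 6 were higher in NIH-3T3 and 7 in MLg, with medians of 0.81 and 1.34. Of 6 genes of chromatin assembly behind the fork, 5 were higher in each line, with medians of 1.86 and 1.99. Of 18 genes of nucleotide synthesis and removal, 10 were higher in each line, with medians of 0.43 and 0.51. A list of 20 mitosis genes was higher in 20 of 20 in each line, with medians of 2.88 in NIH-3T3 and 2.03 in MLg. In the test of the difference 10 of the 20 mitosis genes rose more in NIH-3T3 and 1 less, beside 1 and 2 of the 44 replication genes. Of all genes, 7.48% were called higher and 5.95% lower in that test. Of 12 reference genes 2 were higher and 2 lower in NIH-3T3 and 1 was higher in MLg, with medians of 0.14 and 0.15.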

How the data were processed

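RNA-seq of 12 libraries was analysed from 1 deposited table of FPKM values made by the authors. The submitters' processing notes name bcl2fastq, TopHat2 2.0.12, Cufflinks 2.2.1 and mm10; the annotation, the use of strand and any scaling between libraries are not given in the sources used here. Column names gave line, treatment and replicate. The table has 1 row without values, which was not used, and no repeated symbol.

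The 12379 genes that reached 0.5 FPKM in 3 or more libraries were fitted on log2(FPKM + 0.5) by limma 3.58.1 (R 4.3.3), using 4 group means, a variance trend and two-sided p-values with Benjamini-Hochberg adjustment over all genes tested, at a threshold of 0.05. Fold changes on this scale understate changes of low genes. SE is that of the fit. The 5 comparisons were the SHHN effect within NIH-3T3 and within MLg, the difference of these effects, and NIH-3T3 against MLg among control and among SHHN libraries. They share libraries and the estimate of spread. The script was tested on simulated data. Counts could not be recovered: over the 66 pairs of libraries, no ratio of low values was shared by more than 2.88% of genes, so depth, and with it counting error, is unknown.

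The 44 genes and the further lists were chosen with earlier results of these data known. Values in every library are given for the first and last gene of each role by log2 fold change in NIH-3T3, for genes not past the threshold in an SHHN comparison, and for those past it in the difference. Of the further genes, the 3 highest, the 3 lowest and any that fell are named. Pole2, Pola1, Tk1 and others in the level comparisons were named after their values were seen. Promoters came from RefSeq (GRCm38.p6), read with Python 3.11.15, and exon overlaps from GENCODE M21.

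Replicate numbers are shared by the groups. After removal of group means, same-numbered MLg libraries had correlations over all tested genes of 0.13, 0.16 and 0.24, so the numbers may mark pairs in MLg. In NIH-3T3 the values were -0.00, -0.10 and 0.03, so no pairing by number was seen there, though such values cannot show its absence. The main fit used no pairing in either line, and the alternative with a replicate block added the block in both lines. Alternative fits left out each library in turn, used a pseudocount of 0.1 or 1, filtered at 1 FPKM or not at all, scaled by quantiles or by median ratios, took 6 libraries at a time, added the replicate block, or used robust variances.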

Additional observations from a re-analysis of the deposited data

Results flagged for a closer look

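For 3 of the 44 genes the SHHN effect was called as different between the lines in the test of the difference (NIH-3T3 change minus MLg change, limma, adjusted over all genes tested). Of the 44, 1 was called higher and 2 lower, where 7.48% and 5.95% of all genes were called. For Cdc7, the catalytic subunit of the origin-firing kinase, the difference was -0.93 in log2 (adjusted p = 0.00681), with a rise of 0.41 in NIH-3T3 and 1.34 in MLg, and every SHHN library of a line was above its controls. Orc6, a subunit of the origin recognition complex, differed by -0.77 (adjusted p = 0.0495), with 0.03 in NIH-3T3 and a rise of 0.80 in MLg. Rrm2, the S phase subunit of ribonucleotide reductase, differed by 0.74 (adjusted p = 0.0487), with rises of 2.91 and 2.17. The adjusted p-values of Orc6 and Rrm2 lie just under the threshold, and their calls were kept in 9 and 7 of 20 alternatives. Among controls, Cdc7 was higher in NIH-3T3 (0.76) and Rrm2 lower (-1.03).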

How the results depend on the processing

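Every count of replication genes higher with SHHN held under each alternative run, at 40 or 41 in NIH-3T3 and 43 in MLg, and no gene was called lower. With the replicate number as a block the counts were 41 and 43, and the difference called 1 gene higher and 3 lower, Orc2 being added; the block changed no other call of these genes. The test of the difference called 0 genes higher with a pseudocount of 1, 1 lower with a pseudocount of 0.1, and 0 higher and 1 lower with no filter; the cause was not tested. Leaving out single libraries gave 0 to 2 higher and 1 to 5 lower. In NIH-3T3 the uncalled values of Orc3 and Orc6 changed sign: over single libraries left out, Orc3 ran from -0.225 (without control replicate 2) to 0.0282 (without control replicate 3; 0.00956 without control replicate 1), and Orc6 from -0.125 (without control replicate 1; -0.115 without SHHN replicate 3) to 0.122 (without SHHN replicate 2). In MLg the uncalled Orc5 ran from -0.240 (without control replicate 1) to 0.0323 (without control replicate 3). Calls among the further genes were 29 to 34 in NIH-3T3 and 38 to 42 in MLg. Genes lower in NIH-3T3 were 18 to 27 among controls and 21 to 30 among SHHN libraries. No alternative was left out, but 6 libraries per fit gives no value for the difference, and the block none for levels between lines. With 3 libraries a group and unknown depth, small differences between lines may be missed.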
